A study of Mus musculus with 6 samples.

Results

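Genes that encode bone morphogenetic protein (BMP), growth differentiation factor (GDF) and activin ligands, or secreted proteins that bind or resemble their binders, were followed in infarcted mouse hearts with and without a Runx1 deletion targeted to periostin-expressing cells. The genes were chosen by name: the 6 ligand genes Bmp2, Bmp4, Bmp6, Gdf15, Inhba and Inhbb, and the 4 antagonist and follistatin family genes Grem1, Fst, Fstl1 and Fstl3. They are 10 of the 35498 genes in the tables. Ventricular tissue from below the ligature was sequenced as poly-A RNA 7 days after the left anterior descending (LAD) artery had been ligated, in C57BL/6J mice aged 8 to 10 weeks. The CTL group (n = 3) had the genotype Postn CreER+/-; Runx1 WT, and the Runx1_FB_KO group (n = 3) had Postn CreER+/-; Runx1 fl. Both groups carried the recombinase and both were fed tamoxifen from the operation until the hearts were collected, so neither is free of Cre or tamoxifen. CreER is driven from the periostin promoter, which is active in activated fibroblasts, so Runx1 in other cells of the tissue is not targeted by design, and the labels give neither the zygosity of the floxed allele nor the exons removed. The females were CTL replicate 1 and Runx1_FB_KO replicates 2 and 3, and the other libraries came from males. The labels do not say that the libraries came from separate animals, so p-values measure the spread between these samples, which may be technical in part. Each group held both sexes, so neither came from a single animal.

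BMPs and activins are secreted dimers of the transforming growth factor beta (TGF-beta) superfamily. Each dimer assembles type I and type II receptor kinases at the cell surface. BMP receptors mostly phosphorylate SMAD1 and its relatives and activin receptors SMAD2 and SMAD3, and the level of free ligand is set outside the cell by binding proteins such as gremlin and follistatin. In the injured heart these factors are made by fibroblasts, endothelial cells, immune cells and stressed heart muscle cells, and activins are known for their part in fibroblast activation and scar formation.

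The libraries held 16598561 to 19987279 estimated reads, and 14237 genes had enough reads to be tested. Levels are given as CPM, reads of a gene relative to the scaled library total, unless TPM, which also divide by transcript length, are named. Runx1, the targeted gene, was at 96.4, 86.9 and 85.5 CPM across CTL replicates 1 to 3 and at 17.5, 10.8 and 67.4 CPM across Runx1_FB_KO replicates 1 to 3. The knockout libraries lay below CTL without overlap, but the third kept most of the CTL level (log2 fold change -1.48 ± 0.63 (SE), adjusted p = 0.154 by edgeR's quasi-likelihood test with Benjamini-Hochberg adjustment). The same library stood apart in the makeup of the tissue. The 10 cardiomyocyte markers summed to between 11850 and 14930 CPM in CTL, but to 86250, 106300 and 29290 CPM across Runx1_FB_KO replicates 1 to 3. The 8 activated fibroblast markers summed to between 4153 and 6213 CPM in CTL and to 1040, 679.4 and 4849 CPM in the knockout libraries, the 10 pan-fibroblast markers to between 31300 and 33660 CPM and to 11390, 10700 and 27220 CPM, and the 8 macrophage markers to between 2997 and 4828 CPM and to 1267, 1222 and 3070 CPM. Of all reads, 5.36% to 7.11% in CTL came from mitochondrially encoded genes, against 24.49%, 19.61% and 10.37% for the knockout libraries. The cardiomyocyte sum was thus higher than CTL in all 3 knockout libraries, while the activated fibroblast and macrophage sums of the third lay within the CTL range. The pan-fibroblast sum, lower in all 3, was carried by Col1a1, Col1a2 and Col3a1, and the list did not move together: Gsn had a log2 fold change of 1.32 and Dcn of -0.04. By the mean log2 CPM of the 10 pan-fibroblast markers, relative to the CTL mean, the third knockout library (-0.13) lay within the CTL range (-0.26 to 0.18), and the others were at -0.84 and -0.93. In bulk tissue, fewer cells of a type and less RNA per cell cannot be told apart. Results are therefore given with all 6 libraries and without Runx1_FB_KO replicate 3, a choice made after seeing the data.

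Of the 10 genes, 9 passed the filter on low counts, and none of the 9 passed the test with all 6 libraries (edgeR, adjusted over all genes tested). That test called 0 of 14237 genes (0%), and its smallest adjusted p was 0.0682. At an unadjusted p under 0.05 it picked out 4619 genes (32.4%), and 2 of the 9 were among them, Inhbb and Fst, both lower in the knockout. Of all genes tested, 13.1% were lower at that threshold. DESeq2 called 2784 genes (19.1%) and none of the 9. The fitted log2 fold change was negative for 9 of 9, with a median of -0.90, beside 54.0% of all genes tested and a median of -0.06. Scaled by library size alone, the median of all genes moved to -0.52. With Runx1_FB_KO replicate 3 left out, edgeR called 47.6% of 14609 genes, and 22.5% of the 14609 fell. Of the 9, 6 fell: Gdf15, Inhba, Inhbb, Fst, Fstl1 and Fstl3. The groups did not overlap for 1 of the 9 with all 6 libraries (Fstl3, lower), beside 18.8% of all genes tested that lay lower without overlap. When Runx1_FB_KO replicate 3 was left out this held for 8 of the 9, all lower and all but Bmp6, beside 36.6% of all genes tested that were then lower without overlap.

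**Figure D1:**
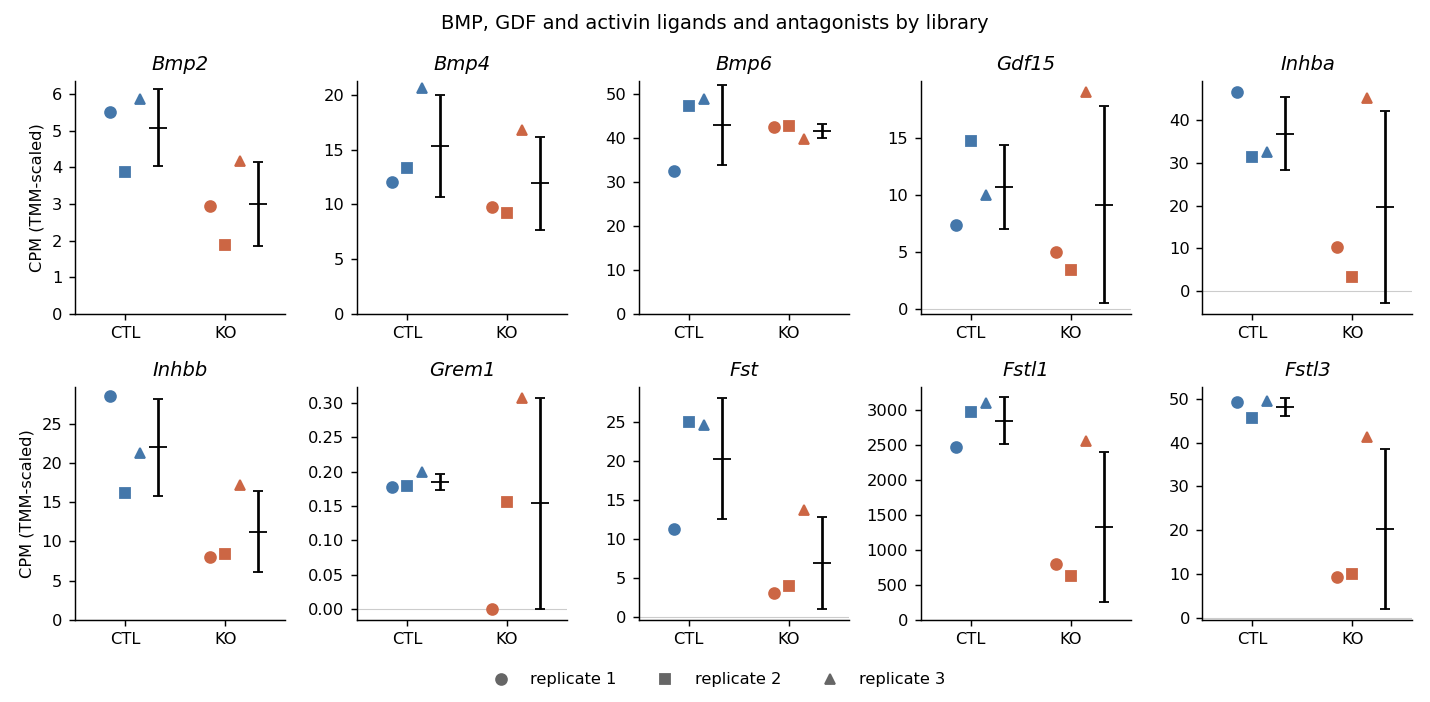
CPM of each of the 10 genes (y axis, linear, a separate scale for each gene) in the 3 CTL and 3 Runx1_FB_KO libraries. Each point is a library, its shape gives the replicate number, and the black mark with bars is the group mean with its SD. Runx1_FB_KO replicates 1 and 2 sit below every CTL library for 8 of the 9 tested genes, Bmp6 being the exception, while replicate 3 lies within or above the CTL range for all but Fstl3.

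Stretches of 3 promoter windows are shown, for genes chosen by their values. Fstl1 was the most abundant of the 10 genes and its window held the sole match to a RUNX word. Fstl3 was the only tested gene of the 10 whose groups did not overlap, beside 18.8% of all genes tested that lay lower without overlap. Inhba differed most among the knockout libraries. The windows are RefSeq sequences (build GRCm38.p6) and run 5′ to 3′ on the plus strand, the strand of all 3 genes. Capitals mark TGCGGT in Fstl1 and, in Fstl3, GTCTG, which is CAGAC read on the other strand. The Inhba stretch held none of the words searched. The 30 bases of Fstl1 lie within an annotated 5′ UTR of the transcript Fstl1-201, and the other stretches end just before the annotated first exon.
Fstl1, chr16:37776880-37776909: gacggggatgccTGCGGTgcatggacgctc
Fstl3, chr10:79777024-79777271: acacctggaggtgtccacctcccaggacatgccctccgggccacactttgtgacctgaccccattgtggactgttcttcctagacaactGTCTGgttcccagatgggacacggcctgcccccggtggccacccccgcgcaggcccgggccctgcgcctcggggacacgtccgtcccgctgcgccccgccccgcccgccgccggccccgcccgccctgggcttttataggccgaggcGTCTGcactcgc
Inhba, chr13:16011601-16011850: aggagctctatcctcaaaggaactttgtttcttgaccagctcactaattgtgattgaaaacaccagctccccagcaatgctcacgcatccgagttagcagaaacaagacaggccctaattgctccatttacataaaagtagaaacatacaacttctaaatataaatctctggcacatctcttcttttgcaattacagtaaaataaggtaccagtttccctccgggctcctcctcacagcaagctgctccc
Windows of 300 bases, from 250 before to 50 after the RefSeq start, were present for 8 of the 10 genes, with Bmp2 and Fst unmatched. Both strands were searched for the RUNX words TGTGGT and TGCGGT, the SMAD word CAGAC, the BMP SMAD word GGCGCC and the ATF4 word TGATGNAA, none of which contains another. TGTGGT was found in none of the 8 windows and in 16.9% of 27025 promoters, and TGCGGT was found in Fstl1 alone and in 6.4% of promoters. CAGAC was in the windows of Bmp6, Gdf15, Grem1 and Fstl3 and in 49.7% of promoters. GGCGCC was in that of Grem1 alone (12% of promoters), and TGATGNAA was in none (4.1% of promoters). A match is a stretch of letters and no measurement of binding.

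Compared per length in CTL, the 10 genes spanned several orders of magnitude. Fstl1 was highest at 1301 ± 163 TPM (SD, n = 3), and Fstl3 followed at 48.5 ± 2.03 TPM. Bmp6 was the highest ligand at 24.5 ± 2.50 TPM. The next levels were those of Fst (19.5 ± 8.67 TPM), Bmp4 (19.0 ± 8.05 TPM), Gdf15 (18.3 ± 6.74 TPM), Inhbb (10.4 ± 2.82 TPM) and Inhba (10.2 ± 2.13 TPM). From Bmp6 down to Inhba each gene's CTL range overlapped that of the next, so no neighbours among these 6 differ beyond their spread, although Bmp6 at the top and the activin subunits at the bottom do not overlap. Bmp2 was lower, at 2.76 ± 0.592 TPM, and Grem1 was at 0.0773 ± 0.00706 TPM, and neither range touched its neighbour's. The TPM of Bmp4 carries an uncertainty of allocation, because in CTL replicate 2 only 8.3 of its reads were given to the retained-intron transcript Bmp4-204, 258 bases long, and these made 14.7 of its 26.8 TPM. TPM were not scaled between libraries, so they are used here within libraries and not to compare the groups.

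**Figure D2:**
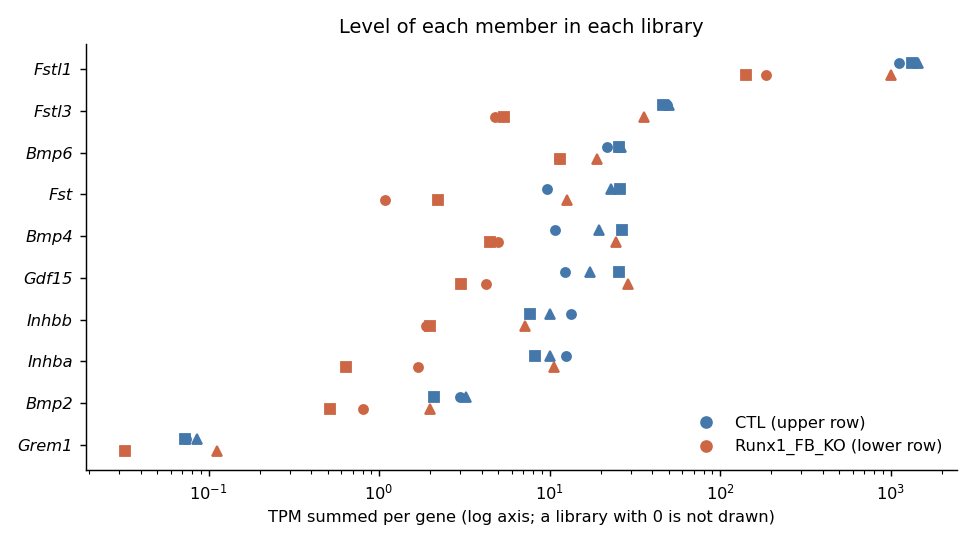
TPM summed per gene (x axis, log scale) for each of the 10 genes, with CTL libraries in the upper row of each gene and Runx1_FB_KO libraries in the lower. Each point is a library and its shape gives the replicate number. Fstl1 lies far above the rest at a CTL mean of 1301 TPM and Grem1 far below at 0.0773 TPM, and the library with 0 reads of Grem1 is not drawn.

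Both activin subunit genes were lower in Runx1_FB_KO replicates 1 and 2 than in every CTL library, and neither passed the test with all 6 libraries. Inhba encodes the beta A subunit, which pairs with itself to form activin A (ENSMUSG00000041324, GRCm38 chromosome 13, 16011851 to 16031621, plus strand). It was at 46.6, 31.2 and 32.5 CPM across CTL replicates 1 to 3 and at 10.3, 3.44 and 45.2 CPM across Runx1_FB_KO replicates 1 to 3. The first and second knockout libraries were the lowest of the 6, and the third was above 2 of the 3 CTL libraries, so the groups overlapped. The log2 fold change was -0.90 ± 0.79 (SE), with an adjusted p of 0.437 by edgeR. It was -0.59 without Runx1_FB_KO replicate 1 and -0.40 without Runx1_FB_KO replicate 2. Without Runx1_FB_KO replicate 3, Inhba fell by 2.37 on the log2 scale (SE 0.43, adjusted p = 0.00366 by edgeR), and over the 19 alternatives the adjusted p ran from 0.00366 to 0.719. Between 89.7% and 100% of its reads in each library belonged to the transcript Inhba-201.

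Inhbb encodes the beta B subunit of activin B (ENSMUSG00000037035, chromosome 1, 119415465 to 119422248, minus strand, 1 annotated transcript). Its CTL levels were 28.6, 16.2 and 21.3 CPM, and its knockout levels were 8.05, 8.43 and 17.3 CPM. Here too the third knockout library alone reached CTL, lying just above CTL replicate 2. The fitted log2 fold change of -0.96 ± 0.36 (SE) gave an unadjusted p of 0.0319 and an adjusted p of 0.129 by edgeR. With Runx1_FB_KO replicate 3 left out, Inhbb fell by 1.38 (log2, SE 0.26, adjusted p = 0.0045 by edgeR), with adjusted p from 0.00293 to 0.36 over the alternatives. In both sexes taken apart the mean of each activin subunit gene was lower in the knockout. For Inhba the lower female mean rests on Runx1_FB_KO replicate 2 (3.44 CPM). Runx1_FB_KO replicate 3 (45.2 CPM) was close to the female CTL replicate 1 (46.6 CPM). Against the single female CTL library the 2 female knockout libraries differed by -1.88 (Inhba) and -1.24 (Inhbb) in mean log2 CPM, and the single male knockout library differed from the 2 male CTL libraries by -1.62 and -1.20, with too few libraries in each for a test.

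Among the BMP genes, Bmp6 lay within the CTL range in every knockout library, and the lower values of Bmp2 and Bmp4 did not pass the test. Bmp6, made by endothelial cells and known for its control of iron uptake through the liver (ENSMUSG00000039004, chromosome 13, 38345107 to 38500302, plus strand), was at 32.5, 47.5 and 49.0 CPM in the CTL libraries and at 42.6, 42.7 and 39.8 CPM in the knockout. The knockout libraries differed less among themselves than the CTL libraries did. The log2 fold change was -0.04 ± 0.19 (SE, adjusted p = 0.879 by edgeR) and 0.03 without Runx1_FB_KO replicate 3 (adjusted p = 0.906 by edgeR), with adjusted p from 0.139 to 0.984 over the alternatives. Its sign turned in 5 of 19 alternatives, with values up to 0.11, and under library size as the sole scaling it was at -0.52, where the median of all genes was also -0.52. Within the females it differed by 0.34 in mean log2 CPM and within the males by -0.18. The 8 endothelial markers summed to between 983.5 and 1092 CPM in CTL and to 1164, 1086 and 1088 CPM in the knockout libraries, the first of which exceeded CTL. That list did not move together, with 6 log2 fold changes negative, 2 positive and a median of -0.07. Kdr alone was at 77.3, 77.1 and 56.3 CPM in CTL and at 226.3, 209.8 and 124.4 CPM in the knockout.

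Bmp2, a ligand best known from bone and from the formation of the heart valves (ENSMUSG00000027358, chromosome 2, 133552159 to 133562885, plus strand), was at 5.51, 3.88 and 5.87 CPM in the CTL libraries and at 2.95, 1.87 and 4.19 CPM in the knockout. The third knockout library was above CTL replicate 2, and the others were below all CTL libraries. The fitted log2 fold change was -0.75 ± 0.38 (SE, adjusted p = 0.202 by edgeR), and -1.03 without Runx1_FB_KO replicate 3 (adjusted p = 0.0554, the lowest of its 19 alternatives, which reached 0.437). Within the females Bmp2 differed by -0.95 in mean log2 CPM and within the males by -0.68. Bmp4, a close relative of Bmp2 that acts through the same receptors (ENSMUSG00000021835, chromosome 14, 46383520 to 46390669, minus strand), was at 12.01, 13.3 and 20.6 CPM in the CTL libraries and at 9.76, 9.21 and 16.8 CPM in the knockout. The third knockout library was the second highest of the 6. Its log2 fold change was -0.36 ± 0.32 (SE, adjusted p = 0.444 by edgeR), and -0.65 without Runx1_FB_KO replicate 3 (adjusted p = 0.0889, the lowest of its alternatives, which reached 0.898). It was -0.08 without CTL replicate 3, -0.23 without Runx1_FB_KO replicate 1 and -0.20 without Runx1_FB_KO replicate 2. Within the females Bmp4 differed by 0.05 in mean log2 CPM and within the males by -0.76.

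Bmp6 made up a larger share of the ligand transcripts in Runx1_FB_KO replicates 1 and 2 than in any other library. Of the TPM summed over the 6 ligand genes, Bmp6 made up 29.5%, 26.5% and 30.5% across CTL replicates 1 to 3, against 45.6%, 51.9% and 20.5% across Runx1_FB_KO replicates 1 to 3. Inhba made up 16.99%, 8.59% and 11.6% in the CTL libraries, against 6.77%, 2.89% and 11.6% in the knockout. The third knockout library lay below all CTL libraries for Bmp6 and inside the CTL range for Inhba. No test was made of these shares.

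Gdf15, a distant member of the family, encodes a hormone that is released from stressed cells and acts on the hindbrain through the receptor Gfral (ENSMUSG00000038508, chromosome 8, 70629393 to 70632456, minus strand). It was at 7.34, 14.7 and 9.99 CPM in the CTL libraries and at 4.98, 3.36 and 19.0 CPM in the knockout. The knockout group thus held the 2 lowest libraries and the highest. Its log2 fold change was -0.22 ± 0.64 (SE, adjusted p = 0.827 by edgeR). When Runx1_FB_KO replicate 3 was left out it fell by 1.31 (log2, SE 0.36, adjusted p = 0.0208 by edgeR), whereas the sign was positive without CTL replicate 2 (0.084), without Runx1_FB_KO replicate 1 (0.083) and without Runx1_FB_KO replicate 2 (0.18). The adjusted p ran from 0.0117 to 0.953 over the 19 alternatives. Within the females it differed by 0.13 in mean log2 CPM and within the males by -1.27. Its receptor gene Gfral had 0 reads in all 6 libraries, each of which allows up to 3 reads for a count of 0, a limit that covers counting error only.

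**Figure D3:**
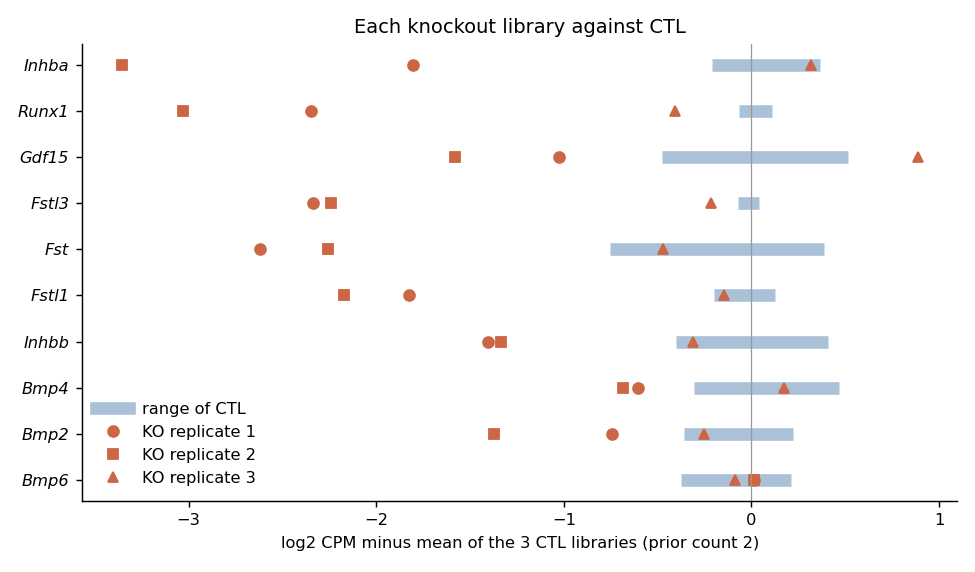
Log2 CPM of the 3 Runx1_FB_KO libraries minus the mean of the 3 CTL libraries (x axis) for Runx1 and the 9 tested genes, ordered by how far replicate 3 lies above replicates 1 and 2. Points are knockout libraries and the blue bar is the range of CTL. The gap is widest for Inhba at 2.90 and is -0.10 for Bmp6, while Runx1 itself has a gap of 2.28.

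The follistatin family was lower in the first and second knockout libraries. Fst encodes follistatin, which binds activins almost irreversibly and keeps them from their receptors (ENSMUSG00000021765, chromosome 13, 114452290 to 114458951, minus strand). It was at 11.2, 24.9 and 24.6 CPM in the CTL libraries and at 3.01, 3.90 and 13.7 CPM in the knockout. The third knockout library lay above CTL replicate 1 and below the other CTL libraries. The log2 fold change was -1.54 ± 0.62 (SE), with an unadjusted p of 0.0406 and an adjusted p of 0.142 by edgeR. Without Runx1_FB_KO replicate 3, Fst fell by 2.51 (log2, SE 0.41, adjusted p = 0.0022 by edgeR), and the adjusted p ran from 0.0022 to 0.361 over the alternatives. Within the females the difference in mean log2 CPM was -0.61 and within the males it was -3.00. The transcript Fst-202 took most of its reads in every library, between 50.7% and 80.5%, while Fst-201 took 35.2%, 11.4% and 6.9% in the CTL libraries, against 16.9%, 30.1% and 0.0% in the knockout, a split that rests on Salmon's division of shared reads.

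Fstl3 encodes a secreted relative of follistatin that also binds activins (ENSMUSG00000020325, chromosome 10, 79777272 to 79782630, plus strand, downstream of the window printed above). It was the steadiest of the genes in CTL, at 49.2, 45.6 and 49.4 CPM, and was at 9.43, 10.1 and 41.3 CPM in the knockout. All 3 knockout libraries lay below all 3 CTL libraries, with the third close to them. The fitted log2 fold change was -1.24 ± 0.56 (SE, adjusted p = 0.171 by edgeR), and without Runx1_FB_KO replicate 3 Fstl3 fell by 2.26 (log2, SE 0.13, adjusted p = 7.389e-05 by edgeR), where the adjusted p over the alternatives reached 0.403. Within the females it differed by -1.26 and within the males by -2.32 in mean log2 CPM.

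Fstl1 encodes an abundant secreted glycoprotein of connective tissue cells that resembles follistatin in sequence (ENSMUSG00000022816, chromosome 16, 37776873 to 37836514, plus strand). It was at 2467, 2971 and 3090 CPM in the CTL libraries and at 797.6, 627.2 and 2558 CPM in the knockout. The third knockout library exceeded CTL replicate 1, and the others were far below every CTL library. The log2 fold change was -1.10 ± 0.57 (SE, adjusted p = 0.213 by edgeR). With Runx1_FB_KO replicate 3 left out it fell by 1.95 (log2, SE 0.21, adjusted p = 0.000409 by edgeR), and the adjusted p ran from 0.000352 to 0.477 over the alternatives. Within the females Fstl1 differed by -0.96 in mean log2 CPM and within the males by -1.93. Grem1 encodes gremlin, which binds BMP2 and BMP4 (ENSMUSG00000074934, chromosome 2, 113746164 to 113758646, minus strand). It had 4 estimated reads in each CTL library and 0, 2 and 6 in the knockout, too few for the test or for a fold, and a count of 0 allows up to 3 reads.

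**Figure D4:**
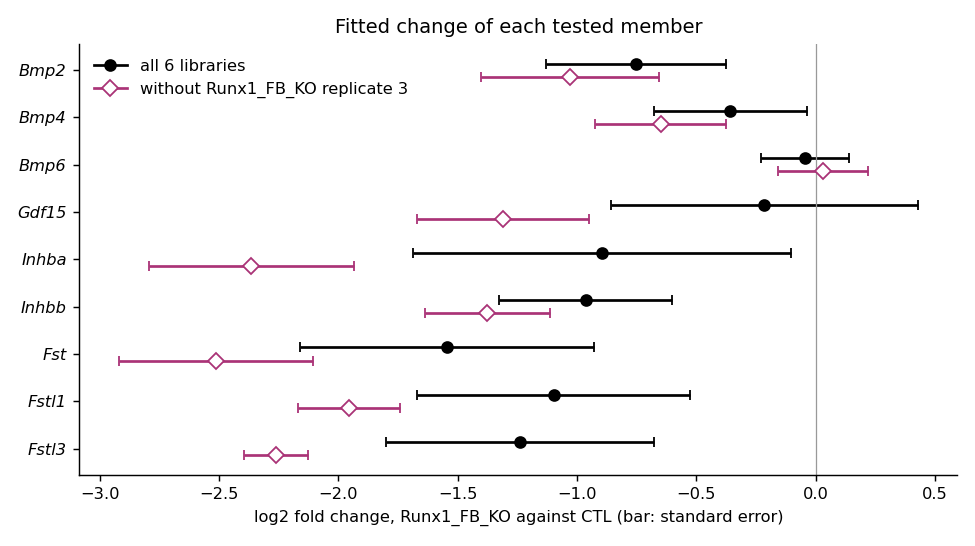
Log2 fold change of Runx1_FB_KO against CTL (x axis) for the 9 tested genes, with bars of 1 standard error, from all 6 libraries (filled circles) and without Runx1_FB_KO replicate 3 (open diamonds). The values move down without that library for all but Bmp6, from -0.90 to -2.37 for Inhba and from -1.24 to -2.26 for Fstl3.

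Activin subunits and their binders were also set against each other within libraries, where the ratio does not depend on scaling between libraries. The ratio of Inhba to Fst TPM was 1.29, 0.316 and 0.438 in the CTL libraries, against 1.55, 0.288 and 0.839 in the knockout. That of Inhbb to Fstl3 was 0.274, 0.166 and 0.199 in the CTL libraries, against 0.39, 0.368 and 0.2 in the knockout. The ranges overlapped in both cases, and Fstl3 transcripts outnumbered those of either subunit in every library. The TPM of Fst carry an uncertainty of allocation. In CTL replicate 2, 49.8 reads of its retained-intron transcript Fst-203 made 8.59 of its 26.0 TPM. The difference in mean log2 ratio, knockout minus CTL, was 0.36 for Inhba to Fst (exact two-sided permutation p = 0.8), 0.15 for Inhba to Fstl3 (exact p = 0.9), 0.76 for Inhbb to Fst (exact p = 0.4) and 0.55 for Inhbb to Fstl3 (exact p = 0.2). Adjusted over these 4 ratios the smallest p was 0.8, and 3 libraries against 3 cannot give an exact p below 0.1. No difference in these ratios was detectable beyond the spread. Leaving out each library in turn moved the Inhba to Fst difference between -0.20 and 1.02, the Inhba to Fstl3 difference between -0.16 and 0.63, the Inhbb to Fst difference between 0.30 and 1.41 and the Inhbb to Fstl3 difference between 0.38 and 0.86. Ratios to Grem1 were not tested, because Runx1_FB_KO replicate 1 had 0 reads of it.

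The genes were further set against the marker lists of the tissue. Relative to the mean log2 CPM of the 10 pan-fibroblast markers, the knockout minus CTL difference was -1.15 for Fst, -0.98 for Inhba, -0.96 for Fstl3 and -0.75 for Fstl1. It was -0.38 for Inhbb, -0.16 for Bmp2, 0.06 for Gdf15, 0.26 for Bmp4 and 0.61 for Bmp6. The groups overlapped for all 9 tested genes on this scale. The genes were not set against the activated fibroblast markers. The mean log2 CPM of those markers, relative to the CTL mean, was at -2.27, -2.69 and -0.02 across Runx1_FB_KO replicates 1 to 3. Relative to the 10 cardiomyocyte markers the difference ran from -2.37 for Bmp6 to -4.13 for Fst. The mean log2 CPM of those markers, relative to the CTL mean, was itself at 2.78, 3.03 and 1.23 across Runx1_FB_KO replicates 1 to 3. A gene with a steady CPM is therefore lower on this scale, as was Bmp6, which lay within the CTL range in CPM. The share of all genes that separate the groups on this scale was not counted. The part of tissue makeup in the values of these genes was not tested.

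By Pearson's r of log2 CPM over the 6 libraries, the gene most like Inhba was Plekhm3 (0.998), the most like Inhbb was Lrrc59 (0.9996), the most like Fst was Fam171a2 (0.998), the most like Fstl1 was Bgn (0.9995) and the most like Fstl3 was Gpr39 (0.999). For Bmp2 it was Cep250 (0.996), for Bmp4 Cd86 (0.996), for Bmp6 Rbm5 (0.983) and for Gdf15 Cd200 (0.986). The number of genes with r above 0.95 among the 11285 candidates separates the group more than these names do. It was 1309 for Fstl3, 1116 for Inhbb and 1053 for Fstl1, 437 for Inhba, 362 for Fst and 268 for Bmp2, but 42 for Gdf15, 15 for Bmp4 and 10 for Bmp6. All points share the same 6 libraries and the contrast of the third knockout library with the others. Each gene named is the highest of 11285 candidates over only 6 libraries. How many would pass 0.95 by chance was not tested.

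The remaining genes of the pathway showed no call with all 6 libraries either, and are described by role. Of 22 other ligand genes of the family 8 were tested, 4 positive and 4 negative, with a median log2 fold change of -0.23 and 3 that fell without Runx1_FB_KO replicate 3. Gdf11, a relative of myostatin, was at 5.78, 8.39 and 8.30 CPM in the CTL libraries and at 3.60, 3.12 and 5.56 CPM in the knockout, lower without overlap (log2 fold change -0.86 ± 0.32 (SE), adjusted p = 0.125 by edgeR). Of 20 other antagonists and modulators 12 were tested, 9 of them negative, with a median of -0.82 and 5 that fell without Runx1_FB_KO replicate 3, where 54.0% of all genes tested were negative and 22.5% fell. Bmp1, despite its name a protease that trims procollagen and cleaves the BMP antagonist chordin, was at 417.0, 416.3 and 404.0 CPM in the CTL libraries and at 140.4, 111.0 and 337.3 CPM in the knockout (log2 fold change -1.07 ± 0.42 (SE), adjusted p = 0.138 by edgeR).

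Most tested receptors and co-receptors had positive values. Of 18 listed genes 17 were tested, 12 of them positive and 5 negative, with a median of 0.32, which became -0.18 with library size as the sole scaling, where all genes had a median of -0.52. When Runx1_FB_KO replicate 3 was left out, 6 rose and 2 fell, beside 25.1% of all genes tested that rose. Hjv encodes hemojuvelin, a BMP co-receptor abundant in striated muscle, and was at 31.2, 34.9 and 30.7 CPM in the CTL libraries and at 180.8, 178.3 and 59.1 CPM in the knockout. All knockout libraries were higher, the third least, beside 20.2% of all genes tested that were higher without overlap (log2 fold change 2.11 ± 0.41 (SE), adjusted p = 0.0682 by edgeR, equal to the smallest of any gene). That adjusted p was tied among many genes, including Asns and most of the cardiomyocyte markers, so it does not rank Hjv among the top few. The unadjusted p by edgeR was 0.0014 for Hjv and 0.00361 for Asns. The summed cardiomyocyte markers were likewise higher in all 3 knockout libraries and least so in the third, and their part in the values of Hjv was not tested. Acvrl1, the type I receptor of endothelium, was at 83.8, 96.8 and 101.2 CPM in the CTL libraries and at 51.5, 45.8 and 71.4 CPM in the knockout, lower without overlap (log2 fold change -0.74 ± 0.20 (SE), adjusted p = 0.0809 by edgeR). Acvr2b, a type II activin receptor, was between 0.938 and 1.69 CPM in the CTL libraries and at 4.65, 3.90 and 2.09 CPM in the knockout, higher without overlap (log2 fold change 1.47 ± 0.45 (SE), adjusted p = 0.0937 by edgeR).

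The SMAD genes and their ubiquitin ligases had a median log2 fold change of -0.10, with 10 of 10 tested, 4 positive and 6 negative, and 2 that fell without Runx1_FB_KO replicate 3. Smad1, a transducer of BMP signals, was at 43.3, 34.1 and 39.6 CPM in the CTL libraries and at 25.5, 22.5 and 33.6 CPM in the knockout, lower by a narrow margin without overlap (log2 fold change -0.52 ± 0.19 (SE), adjusted p = 0.129 by edgeR). Of 12 BMP response genes 11 were tested, 7 of them negative, with a median of -0.45, and 5 fell without Runx1_FB_KO replicate 3, beside 54.0% negative and 22.5% that fell among all genes tested. Id2 and Id3 encode inhibitors of helix-loop-helix transcription factors and are standard readouts of BMP signalling. Id2 was at 53.7, 41.6 and 49.3 CPM in the CTL libraries and at 16.2, 16.0 and 36.5 CPM in the knockout, and Id3 at 142.7, 134.1 and 159.2 CPM and at 51.0, 51.8 and 122.1 CPM. Both were lower without overlap (log2 fold changes -1.07 ± 0.34 and -0.95 ± 0.36 (SE), adjusted p = 0.1004 and 0.1295 by edgeR). Id1, the related readout, was at 16.5, 21.3 and 22.9 CPM and at 20.8, 26.5 and 22.2 CPM. Its log2 fold change was 0.20 ± 0.19 (SE, adjusted p = 0.472 by edgeR). That value became -0.28 with library size as the sole scaling, where all genes had a median of -0.52. Id4, the fourth Id gene of the list, had a log2 fold change of -0.56 ± 0.50 (SE, adjusted p = 0.439 by edgeR).

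The activin and TGF-beta response genes were negative in 9 of 9, with a median of -0.97, and 9 of 9 fell without Runx1_FB_KO replicate 3, beside 54.0% negative and 22.5% that fell among all genes tested. Inhba and Fstl3 belong to this list as well. Tgfbi, which encodes a matrix protein induced by TGF-beta, was at 386.4, 156.7 and 180.2 CPM in the CTL libraries and at 56.2, 66.3 and 160.4 CPM in the knockout (log2 fold change -1.35 ± 0.51 (SE), adjusted p = 0.132 by edgeR). The third knockout library was just above CTL replicate 2, so the groups overlapped. Pmepa1, a feedback inhibitor of that pathway, was at 257.7, 315.0 and 278.9 CPM and at 87.0, 61.6 and 287.4 CPM, so the third knockout library was inside the CTL range. This list had the pattern of Inhba and the follistatin family, with the first and second knockout libraries low and the third near CTL. The activated fibroblast markers, of which 8 of 8 fell without Runx1_FB_KO replicate 3, and the macrophage markers, of which 7 of 8 fell, had that pattern as well, and their part in it was not tested.

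Genes of the integrated stress response, the program of amino acid shortage and unfolded protein to which Gdf15 is known to respond, were tested for 13 of 14, with 11 negative and a median of -0.58. Without Runx1_FB_KO replicate 3, 1 rose and 7 fell, beside 25.1% and 22.5% of all genes tested. Asns, asparagine synthetase, was at 13.7, 7.68 and 13.2 CPM in the CTL libraries and at 4.12, 3.44 and 5.67 CPM in the knockout (log2 fold change -1.38 ± 0.32 (SE), adjusted p = 0.0682 by edgeR). Phgdh, the entry enzyme of serine synthesis, was at 20.4, 20.8 and 28.9 CPM in the CTL libraries and at 2.36, 2.65 and 10.7 CPM in the knockout (log2 fold change -2.14 ± 0.59 (SE), adjusted p = 0.0814 by edgeR). Both were among the 5 of 13 that were lower without overlap, beside 18.8% of all genes tested, and in the other 8 the groups overlapped. Ddit3, a stress-induced transcription factor, had a log2 fold change of 0.43. It became -0.05 with library size as the sole scaling, where all genes had a median of -0.52.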

How the data were processed

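Per the labels' protocols, RNA was extracted with Trizol and messenger RNA was purified on poly-T beads. Each sample's deposited table holds estimated counts, TPM and effective lengths, as the authors obtained them, for 116546 transcripts. Salmon 1.5.2, DESeq2 1.44.0 and mm10 (GRCm38) are named per the submitters' processing notes, and the annotation release is not given in the sources used here.

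Transcripts were matched to genes with GENCODE M21 (GRCm38). The 569 unmatched transcripts, 0.0777% to 0.102% of a library's reads, were left out. Deposited estimated counts were summed per gene and rounded to whole numbers, and the authors' TPM were summed per gene. Hjv was matched under its older symbol Hfe2. Genes were filtered by filterByExpr, scaled by TMM and tested with edgeR 4.0.16 (quasi-likelihood, genotype alone, all 6 libraries, Benjamini-Hochberg over 14237 genes, threshold 0.05). The SE of a log2 fold change is its size over the root of the F statistic. Log2 CPM used a prior count of 2. Ratios of TPM were tested by exact permutation over libraries, and adjusted over the 4 that could be tested of the 6 planned. The fit was tested on simulated data, and the share of planted changes that it recovered is not reported here.

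The members and lists were chosen with earlier results of these data known, so their directions are no independent evidence. Named genes are Runx1, the 10 members, for each tested member the 2 protein-coding genes with the highest correlation (the first of which is given in the text), and for each pathway list up to 3 others with the smallest p, of which the text gives some. A gene that this rule names is not reported here. Gfral, Id1, Id4, Ddit3, Kdr and the pan-fibroblast markers named were chosen after their values were seen. Some genes stand in more than a single list. Reads divided between transcripts or overlapping genes rest on Salmon's estimates. Other fits used a replicate block, sex as a covariate, other scalings and filters, an effective length offset, protein-coding genes only, omission of mitochondrially encoded genes and globins, DESeq2 1.42.0, limma-voom (limma 3.58.1), a threshold of 0.1 and each library left out. Sex as a covariate together with omission of Runx1_FB_KO replicate 3, and counts of separated groups without it, were added after seeing the data. Promoter windows are RefSeq's (GRCm38.p6).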

Additional observations from a re-analysis of the deposited data

How the results depend on the processing

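With all 6 libraries the test called 0 of 14237 genes and 0 of the 9 tested members, and the counts depended on the setting. With no filter 889 genes were called, by DESeq2 2784, and at a threshold of 0.1 2311, with 0 members in each. Leaving out each library in turn gave 0 to 6947 genes and 0 to 6 members, the upper values without Runx1_FB_KO replicate 3. With sex as a covariate and without that library, 7177 genes and 6 members were called. The sign of Bmp6 turned with sex as a covariate (0.082), without CTL replicate 2 (0.033), without CTL replicate 3 (0.061), without Runx1_FB_KO replicate 3 (0.031), and with sex as a covariate and without that library (0.11), and it ran from -0.21 to 0.061 over single libraries left out. The sign of Gdf15 turned without CTL replicate 2 (0.084), without Runx1_FB_KO replicate 1 (0.083) and without Runx1_FB_KO replicate 2 (0.18), with a range of -1.31 to 0.18. The Inhba to Fst ratio difference turned without CTL replicate 2 (-0.060) and without Runx1_FB_KO replicate 1 (-0.20), and ran from -0.20 to 1.02 over single libraries left out. The Inhba to Fstl3 difference turned with estimated counts in place of TPM (-0.022), without Runx1_FB_KO replicate 1 (-0.16) and without Runx1_FB_KO replicate 3 (-0.034), with a range of -0.16 to 0.63. The cause was not tested. Bmp2, Bmp4, Inhba, Inhbb, Fst, Fstl1 and Fstl3 were negative under all 19 alternatives. Same-numbered libraries correlated at -0.05, 0.11 and 0.08 in their deviations from the group means, and Runx1_FB_KO replicate 1 correlated best with CTL replicate 2, so the numbers were not taken to pair them. The fit with the replicate block called 0 genes and 0 members, with Fst at -1.78, Fstl3 at -1.61 and Inhba at -1.63. For the ratios, the mean of same-numbered differences equals the difference of group means by construction. A replicate block therefore could not change the size of the ratio differences. Depth limits Grem1, with at most 6 reads in a library, and the spread of 3 libraries in a group limits the rest.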
